A study of Mus musculus with 8 samples.

Results

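The core circadian clock genes were described here by the H3K56ac peaks that lie over and around them in muscle stem cells (MuSCs). Members were named by gene: the activators Clock and Arntl, the repressors Per1, Per2, Per3, Cry1 and Cry2, and the output gene Dbp. Each gene was taken with 10 kb on either side, and every peak that overlapped this window by at least 1 bp was counted. The windows of these 8 genes, of 21938 protein-coding genes in GENCODE vM21, held 74 of the 105600 merged peaks.

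The study asked where H3K56ac (histone H3 acetylated at lysine 56) lies in the genome of MuSCs and how this depends on the deacetylase SIRT6. Freshly isolated MuSCs of C57BL/6 mice were profiled by chromatin immunoprecipitation and sequencing, with the antibody EpiGentek A-4026-050-EP. The 8 libraries form 4 groups of 2: H3K56ac and input DNA of Control mice, labelled wild type, and H3K56ac and input DNA of Sirt6mKO mice, in which a Cre expressed from the Pax7 locus deletes floxed Sirt6 in the muscle lineage. The labels give neither the age of the mice nor the hour at which the cells were collected, and pooling of animals is not stated. What was analysed is 1 merged list of peak positions, with no height and no value per library. Control and Sirt6mKO cannot be told apart in it, sequencing depth is unknown from it, and an absent peak means only that no interval was listed. Peaks and genes are not replicates, so the values below are descriptions without a test.

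The clock is a feedback loop of transcription. CLOCK and BMAL1, the product of Arntl, bind as a pair to E-boxes and drive Per, Cry and Dbp. PER and CRY proteins assemble, enter the nucleus and repress the same pair, while DBP carries the rhythm on to genes with D-boxes. A side loop runs through ROR and REV-ERB receptors, which act on ROR elements of Arntl. Most tissues, skeletal muscle among them, run such a clock in their own cells.

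Every member carried H3K56ac at its transcription start site (TSS). The outermost TSS lay under a peak in 8 of 8 members, against 56.8% of protein-coding genes. A promoter peak, within 3 kb of any annotated TSS, was listed for 8 of 8, against 67.8% of protein-coding genes. The promoter peaks were broad: 6 of 8 members, all but Clock and Per3, had one of at least 5 kb, against 16.5% of protein-coding genes. Their median width was 7413.5 bp, compared with 3430 bp over the 14872 protein-coding genes that had any.

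Sequence around the start sites is shown first, for Cry1, Cry2 and Per3, whose outermost promoters hold a clock motif, and, beside them, for Clock, whose promoter holds none of those searched. RefSeq promoters (GRCm38.p6, 250 bases before to 50 after the start) matched 7 of the 8 members, with 11 promoters in all, and none was matched for Per2. Of the 11, 10 lay wholly under a peak, and 5 held a motif. Those with a motif in Arntl and Per1 are described with their genes. No motif was held by the matched promoter of Dbp or by any of Clock. The Arntl promoter at its outermost TSS and the Per1 promoter starting at 4935 bp held none either. Exact letters were searched on both strands: the E-box CACGTG, the E-prime box CACGTT, the D-box TTATGTAA or TTACGTAA, the ROR element core TAGGTCA, and the cyclic AMP response element (CRE) TGACGTCA. Among all 32544 promoters of that table, 7.17% held the E-box, 4.71% the E-prime box, 1.05% the D-box, 2.61% the ROR core and 1.80% the CRE. The share of all promoters holding any of these motifs, or lying wholly under a peak, was not computed. The counts of 10 and 5 among the 11 therefore have no background beside them. In the member windows, 1 pair of neighbouring matches among 281 overlapped. The lines below give the bases before exon 1, on the strand of the gene, with motif letters in capitals. Cry1 is chr10:85185065-85185304, Cry2 is chr2:92434070-92434319, Per3 is chr4:151044666-151044915 and Clock is chr5:76304793-76305042, all minus strand on GRCm38.
Cry1: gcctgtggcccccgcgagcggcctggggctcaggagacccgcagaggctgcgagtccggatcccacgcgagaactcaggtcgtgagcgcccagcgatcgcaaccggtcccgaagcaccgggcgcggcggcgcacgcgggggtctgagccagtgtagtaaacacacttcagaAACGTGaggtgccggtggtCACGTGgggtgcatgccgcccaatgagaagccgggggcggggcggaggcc
Cry2: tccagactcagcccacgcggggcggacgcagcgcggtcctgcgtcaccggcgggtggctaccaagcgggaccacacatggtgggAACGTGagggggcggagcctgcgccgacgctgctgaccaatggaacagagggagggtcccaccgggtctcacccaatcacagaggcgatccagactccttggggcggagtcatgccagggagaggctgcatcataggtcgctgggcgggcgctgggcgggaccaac
Per3: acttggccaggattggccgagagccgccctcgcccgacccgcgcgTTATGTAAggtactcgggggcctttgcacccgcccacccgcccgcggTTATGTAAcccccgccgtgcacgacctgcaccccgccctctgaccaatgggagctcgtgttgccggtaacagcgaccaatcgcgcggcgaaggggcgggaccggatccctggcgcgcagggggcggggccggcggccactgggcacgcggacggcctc
Clock: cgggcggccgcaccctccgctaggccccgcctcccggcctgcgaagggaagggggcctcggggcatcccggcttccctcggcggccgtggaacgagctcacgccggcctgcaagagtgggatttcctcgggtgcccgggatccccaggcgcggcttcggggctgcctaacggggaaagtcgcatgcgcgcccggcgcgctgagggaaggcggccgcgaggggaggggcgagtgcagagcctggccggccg

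In Cry1 the capitals mark an E-prime box at -69 and an E-box at -50 bp from the outermost TSS, side by side and both under the TSS peak. Cry2 holds 1 E-prime box, at -192 bp. Per3 holds 2 D-boxes, at -205 and -158 bp. Its promoter is the one not wholly covered: a gap of 46 bp separates the TSS peak from the next, the D-box at -158 bp lies in that gap, and the D-box at -205 bp lies under a peak. The Clock promoter is rich in CpG, with 42 in 300 bases and 76.3% GC. The promoters beside it are CpG-rich as well: Per3 has 41 and 73.3% GC, Cry1 38 and 72.3%, and Cry2 30 and 70.3%.

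Peaks took up very different shares of the windows. The share was 78.3% for Dbp, 56.3% for Per1, 48.8% for Per2, 38.9% for Cry2, 34.8% for Arntl, 21.8% for Cry1, 10.6% for Per3 and 5.91% for Clock. The median over all protein-coding genes was 9.85%, with quartiles of 0 and 22.5%, so 7 of 8 members lay above the median and Clock below it. Without values per library, there is no spread by which to judge whether neighbours in this order differ. Set among genes whose windows are within 20% of the same length, Dbp stood at percentile 99.4, Per1 at 98.0, Per2 at 97.3, Cry2 at 93.7, Arntl at 90.3 and Cry1 at 81.1. Per3 sat in the middle of its comparison set, at percentile 50.0, and Clock stood at 37.9.

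**Figure D1:**
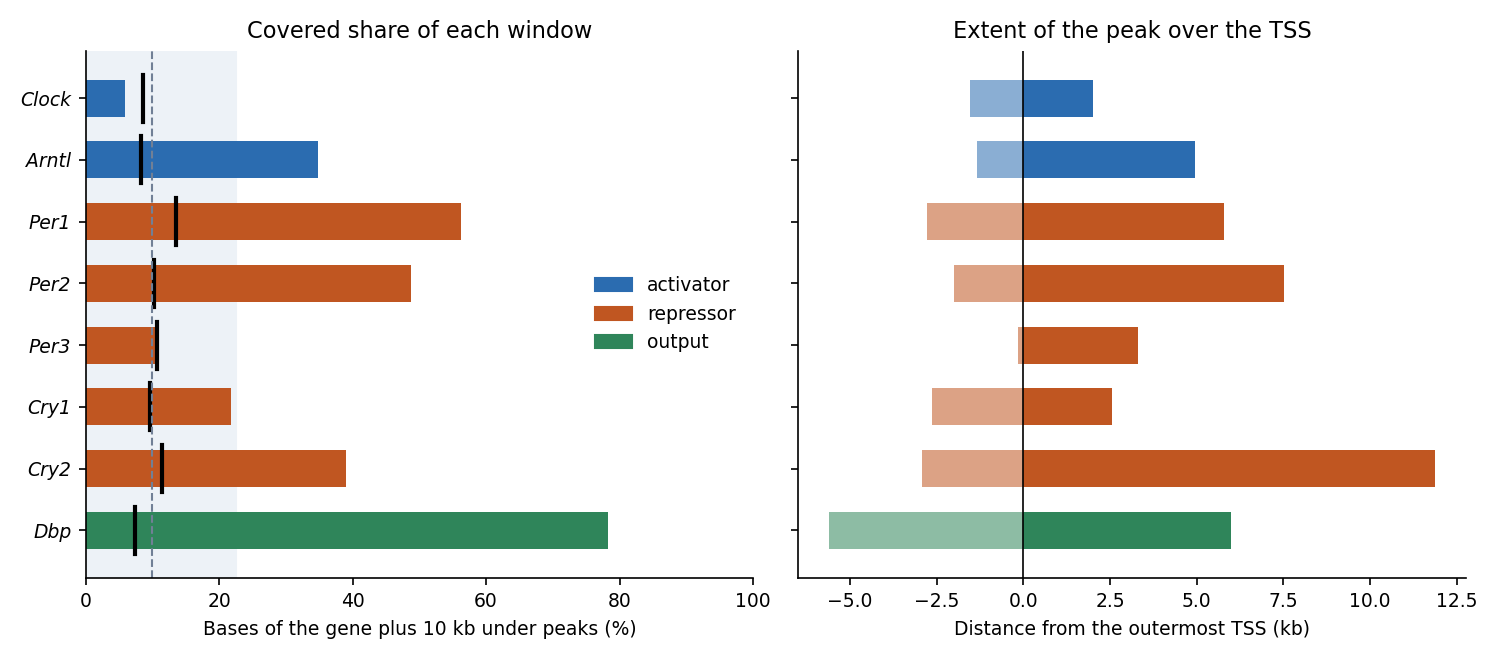
Left, share of bases of each gene plus 10 kb under H3K56ac peaks (%), with a black tick at the median of genes of similar window length, a dashed line at the median of all protein-coding genes (9.85%) and a shaded band for their quartiles. Right, how far the peak over the outermost TSS reached upstream (pale) and downstream (dark), in kb; Cry2 reached furthest, and Dbp had the highest share.

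By role, peaks covered 21.1% of the 2 activator windows together, 32.7% of the 5 repressor windows and 78.3% of the Dbp window. The numbers of peaks were 32, 38 and 4, which is 1.32, 1.34 and 1.59 peaks per 10 kb. The pooled activator density averages unlike genes, 1.97 per 10 kb for Arntl and 0.609 for Clock, and the repressors ran from 0.656 for Per3 to 2.21 for Per2. The median width of the widest promoter peak was 4913.5 bp for activators (3552 and 6275), 8552 bp for repressors (3439 to 14808) and 11581 bp for Dbp. The roles overlapped: Arntl had a higher share than Cry1 and Per3, and the narrowest promoter peak belonged to a repressor, Per3. The activator minus repressor difference of -11.7 percentage points rested on Clock. Without Clock it turned to 2.105 points, and without Arntl it was -26.8. It was -7.02 without Per2, -17.7 without Per3 and -7.74 over gene bodies alone.

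**Figure D2:**
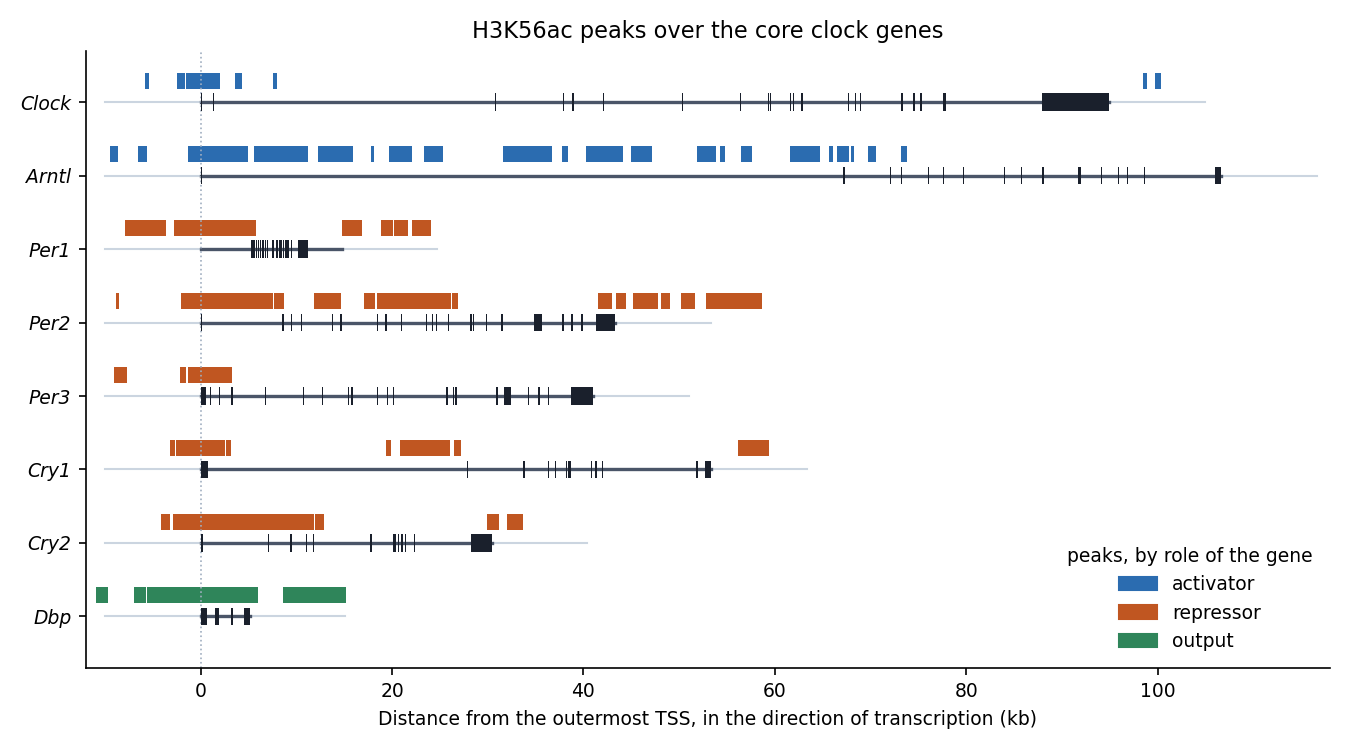
Peaks (coloured bars, by role of the gene) over each core clock gene, against distance from the outermost TSS in kb; the dark line is the gene with exons as boxes, and the pale line is the rest of the window of 10 kb on either side. Arntl peaks cover 69.3% of its intron 1 and 49.7% of its intron 2, and Clock has no peak between its second intron and its 3′ end.

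Of the 74 peaks, 8 lay over an outermost TSS, 29 within introns, 8 touched exons inside a gene, 1 lay over a 3′ end, 13 were upstream and 15 downstream. Their median width was 1156 bp (259 to 14808), and that of the whole list was 974 bp. Many stood close together: 34 of the 66 gaps between neighbouring peaks were under 1 kb, 11 were under 100 bp, and the narrowest was 15 bp, inside Arntl. Peaks within 3 kb of a TSS of another protein-coding gene numbered 18. Locations, spacing and nearness to other genes' starts were not computed over the whole list. None of these can therefore be called particular to these windows.

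Among the activators, Clock, the histone acetyltransferase and DNA-binding partner of BMAL1, lies at chr5:76209868-76304792 on the minus strand and has 23 exons in the transcript used. It had 7 peaks. The TSS peak was 3552 bp wide, from 1532 bp upstream to 2019 bp downstream, and covered exons 1 and 2. The other 6 were narrow, 365 to 785 bp: 2 upstream, 2 in intron 2 and 2 downstream. Only 3.21% of the gene body was covered. The promoter of Clock was therefore marked over a width close to that of other genes (percentile 52.4), while the remaining gene had almost no interval. The 2 downstream peaks stand within 3 kb of the TSS of Tmem165, whose own TSS lies 100672 bp from that of Clock.

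Arntl, the gene of BMAL1, lies at chr7:113207465-113314126 on the plus strand with 20 exons, and its pattern was the opposite. It had 25 peaks, the most of any member. The TSS peak measured 6275 bp and was followed after 626 bp by a peak of 5669 bp, both reaching into intron 1. Of the 25, 20 were intronic, and peaks covered 69.3% of intron 1 and 49.7% of intron 2. The last peak began in exon 5 and ended in intron 5, 73863 bp from the TSS. No interval was listed from there to the end of the window. The TSS peak made up 14.2% of the bases of Arntl peaks, against 52.3% for Clock.

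One ROR element core of Arntl lay in exon 1, 76 bp from the TSS and under the TSS peak, and is shown because this class of element ties Arntl to the ROR and REV-ERB receptors. The line gives chr7:113207531-113207557, plus strand, with the 7 core letters in capitals.
Arntl: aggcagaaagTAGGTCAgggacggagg
Arntl had 20 such cores in its window, 10 of them under peaks, and Clock also had 20, with 1 under a peak. Per kb, Arntl held 0.227 under peaks and 0.121 outside. The core was also denser under peaks in Per3, Cry1, Cry2 and Dbp, and less dense in Clock and Per2. Per1 had none in its window. Over all member windows, 25 of 79 cores lay under peaks (31.6%), beside 29.7% of bases covered. The pooled density was 0.153 per kb under peaks and 0.140 outside. Genome-wide the ROR core was about as dense under peaks (0.102 per kb) as outside (0.106 per kb).

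Among the repressors, Per1, the period gene that responds quickly to light and hormones, lies at chr11:69095217-69109960 on the plus strand. It had 6 peaks. The TSS peak was 8552 bp wide, from 2771 bp upstream to 5780 bp downstream, and covered all of intron 1. The RefSeq promoters matched for Per1 start within that intron, at 3732 and 4935 bp, and not at the outermost TSS. Upstream lay a second broad peak of 4266 bp, and 4 peaks of 1296 to 2018 bp lay downstream of the gene. The furthest of these 4 lies within 3 kb of a start of Hes7. Vamp2, a vesicle fusion gene on the same strand, starts between -6727 and -5611 bp, under the upstream peak of 4266 bp. A start of Vamp2 also lies within 3 kb of the Per1 TSS peak, so the 2 genes share that peak under the promoter rule. Of the Per1 peaks, 3 stood clear of other coding genes, that is, outside their bodies and over 3 kb from their starts.

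Per2, a period gene required for rhythms in mice, lies at chr1:91415982-91459324 on the minus strand. It had 14 peaks. The TSS peak was 9526 bp wide, from 2004 bp upstream to 7521 bp downstream, and covered 98.7% of intron 1 with the peak after it. Further peaks lay over exons 5 to 14, among them one of 5591 bp, and peaks covered 51.1% of the gene body. Downstream of the gene stood 5 peaks. One of 2624 bp covers the starts of Hes6, 45286 to 46116 bp from the Per2 TSS, and 2 others lie within 3 kb of them. The furthest, of 5835 bp, lies within 3 kb of a start of Ilkap and mostly beyond the window. Per1 and Per2 each had 1 peak upstream besides the TSS peak, of 4266 bp in Per1 and 259 bp in Per2. The one in Per1 covers starts of Vamp2.

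Per3, the period gene least needed for the rhythm, lies at chr4:151003652-151044665 on the minus strand, within Camta1. It had 4 peaks. The TSS peak was 3439 bp wide and reached only 139 bp upstream but 3299 bp downstream, to exon 4. The other 3 lay upstream, at 624 to 1311 bp, and no interval was listed in the rest of Per3 or downstream of it, where Uts2 has no promoter peak. Because of Camta1, no Per3 peak is clear of another protein-coding gene. Its 3 peaks closest to the TSS, joined across gaps under 1 kb, spanned 5452 bp.

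Cry1, a light-independent repressor of CLOCK and BMAL1, lies at chr10:85131700-85185064 on the minus strand. It had 8 peaks. The TSS peak measured 5201 bp and was the only one of the 8 TSS peaks that did not reach further downstream (2571 bp) than upstream (2629 bp). The remaining 5 peaks inside the gene were all in intron 1, including one of 4328 bp from 20845 to 25172 bp downstream, and no interval was listed in exons 2 to 13. A peak of 3240 bp downstream of Cry1 covers the start of Mterf2.

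Cry2, its paralog, lies at chr2:92403646-92434043 on the minus strand and had the widest single peak. Among its 6 peaks, that over the TSS measured 14808 bp, from 2933 bp upstream to 11874 bp downstream, and covered exons 1 to 5. It stood at percentile 98.8 of promoter peak widths and held 75.5% of the bases of Cry2 peaks. The other 5 were 708 to 1218 bp wide, and 3 of these stood at the 3′ end and beyond it, where Mapk8ip1 starts. The cryptochromes thus differed in layout, with separate intronic peaks in Cry1 and 1 continuous interval in Cry2.

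Dbp, the output gene and a D-box activator, lies at chr7:45705088-45710203 on the plus strand and is the shortest member. A single peak of 11581 bp, from 5606 bp upstream to 5974 bp downstream, covered the whole gene. It also covers starts of Car11, which lie between -5245 and -1605 bp, and comes within 3 kb of a start of Sphk2. A peak of 6519 bp downstream lies over starts of Rpl18 and Sphk2 and within 3 kb of one of Fam83e, and the peak at the upstream edge of the window lies over a start of Sec1. None of the 4 Dbp peaks is clear of other coding genes. The peaks of the Dbp window thus also lie at starts of 5 neighbours, and the covered share was 56.6% with 25 kb on either side.

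Peaks leaned towards the 5′ end of the members. The TSS peak reached further downstream than upstream in 7 of 8, against 67.1% of protein-coding genes with the outermost TSS under a peak. With each gene cut into 3 equal parts from the TSS to the 3′ end, the 5′ part was covered more than the 3′ part in 7 of 8, against 87.6% of such genes. The second count is close to its background, and the difference of the first from its background was not tested. In Dbp all 3 parts were at 100%. The 5′, middle and 3′ parts of Per2 had 77.1%, 66.7% and 9.44%, and those of Arntl 64.2%, 49.4% and 1.75%. These long genes were covered well beyond the promoter. Per1 had 100%, 17.6% and 0, and Cry2 100%, 26.7% and 4.71%. Clock had 9.64% in its 5′ part and 0 in both others. Cry1 was the exception in order, with 17.8%, 36.1% and 0. All 8 members had exon 1 wholly under a peak, 5 had intron 1 wholly under one, and 4 had no peak in the 3′ part. The median share of the 3′ part was 0 over the 12469 protein-coding genes with the outermost TSS under a peak. A bare 3′ part is therefore common among such genes. Shares over all protein-coding genes were not computed for exon 1 or intron 1.

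**Figure D3:**
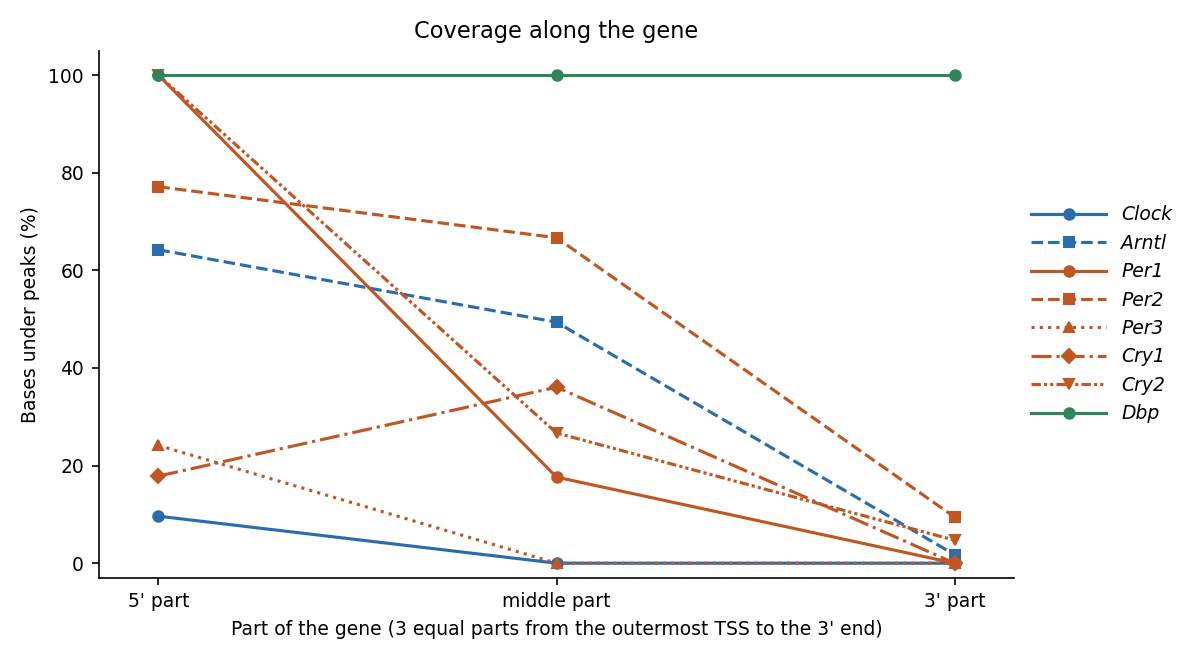
Share of bases under peaks (%) in 3 equal parts of each gene, from the outermost TSS to the 3′ end, coloured by role (blue activators, orange repressors, green Dbp). Dbp stays at 100%, Cry1 is highest in its middle part (36.1%), and the other 6 are lower in the 3′ part than in the 5′ part.

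E-boxes, the sites of CLOCK and BMAL1, were next placed against the peaks. The member windows held 79, and 24 of them (30.4%, Wilson 95% interval 21.3 to 41.2%, counting error only) lay under peaks, which cover 29.7% of the same bases. Within the windows, E-boxes had nearly the same density under peaks (0.147 per kb) and outside (0.142 per kb). Over the whole genome there were 0.152 per kb under peaks and 0.0973 outside. Of the 24, 16 were intronic, 4 upstream, 3 downstream and 1 exonic, and 3 lay within 500 bp of an outermost TSS.

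The members differed in how many E-boxes their peaks held. Per1 had 8 of 9 under peaks, 6 of them in the TSS peak. Dbp had 3 of 6 and Cry2 3 of 8, all in the TSS peak. Arntl had 6 of 14, Per2 3 of 6 and Cry1 1 of 8, each with 1 in the TSS peak. Clock, with 12 E-boxes in its window, and Per3, with 16, had none under any peak. These are also the members with the smallest covered shares, 5.91% and 10.6%. Dbp, with the largest covered share, 78.3%, nevertheless had 3 of its 6 E-boxes outside peaks.

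The 6 E-boxes of the Per1 TSS peak are printed because it held more than any other. Each line gives the hexamer in capitals with 10 bases on either side, on the plus strand of chromosome 11, named by its distance from the outermost TSS. They start at 69094883, 69095067, 69097674, 69098420, 69098783 and 69100963.
Per1 at -334: agccagcctgCACGTGttccctacag
Per1 at -150: cccccgccctCACGTGgctctatcac
Per1 at 2457: aagctttagcCACGTGacagtgaggg
Per1 at 3203: cccttaacgaCACGTGggccctcaat
Per1 at 3566: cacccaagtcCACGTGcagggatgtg
Per1 at 5746: tgctgctgacCACGTGgccctccctc

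The first pair lies upstream of the outermost start, the next 3 in intron 1, and the last in intron 2. The RefSeq promoter that starts at 3732 bp holds the one at 3566 bp.

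In Cry2 the 3 E-boxes lay far inside the TSS peak, in intron 3, on the minus strand of chromosome 2 from 92423920, 92423867 and 92423340.
Cry2 at 10118: cacagctgtgCACGTGagccaagccc
Cry2 at 10171: cttcccctgcCACGTGccaggggagg
Cry2 at 10698: taggcggctcCACGTGgacaccaggg

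In Dbp a pair of E-boxes with an E-prime box between them lay in intron 2, from 2624 to 2737 bp after the TSS, and the third E-box, at 5780 bp, lay past the 3′ end. The stretch with the 3 intronic motifs in capitals is chr7:45707702-45707840, plus strand.
Dbp: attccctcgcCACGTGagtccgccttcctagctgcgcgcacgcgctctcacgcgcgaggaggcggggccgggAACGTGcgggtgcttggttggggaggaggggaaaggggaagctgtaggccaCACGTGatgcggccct

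**Figure D4:**
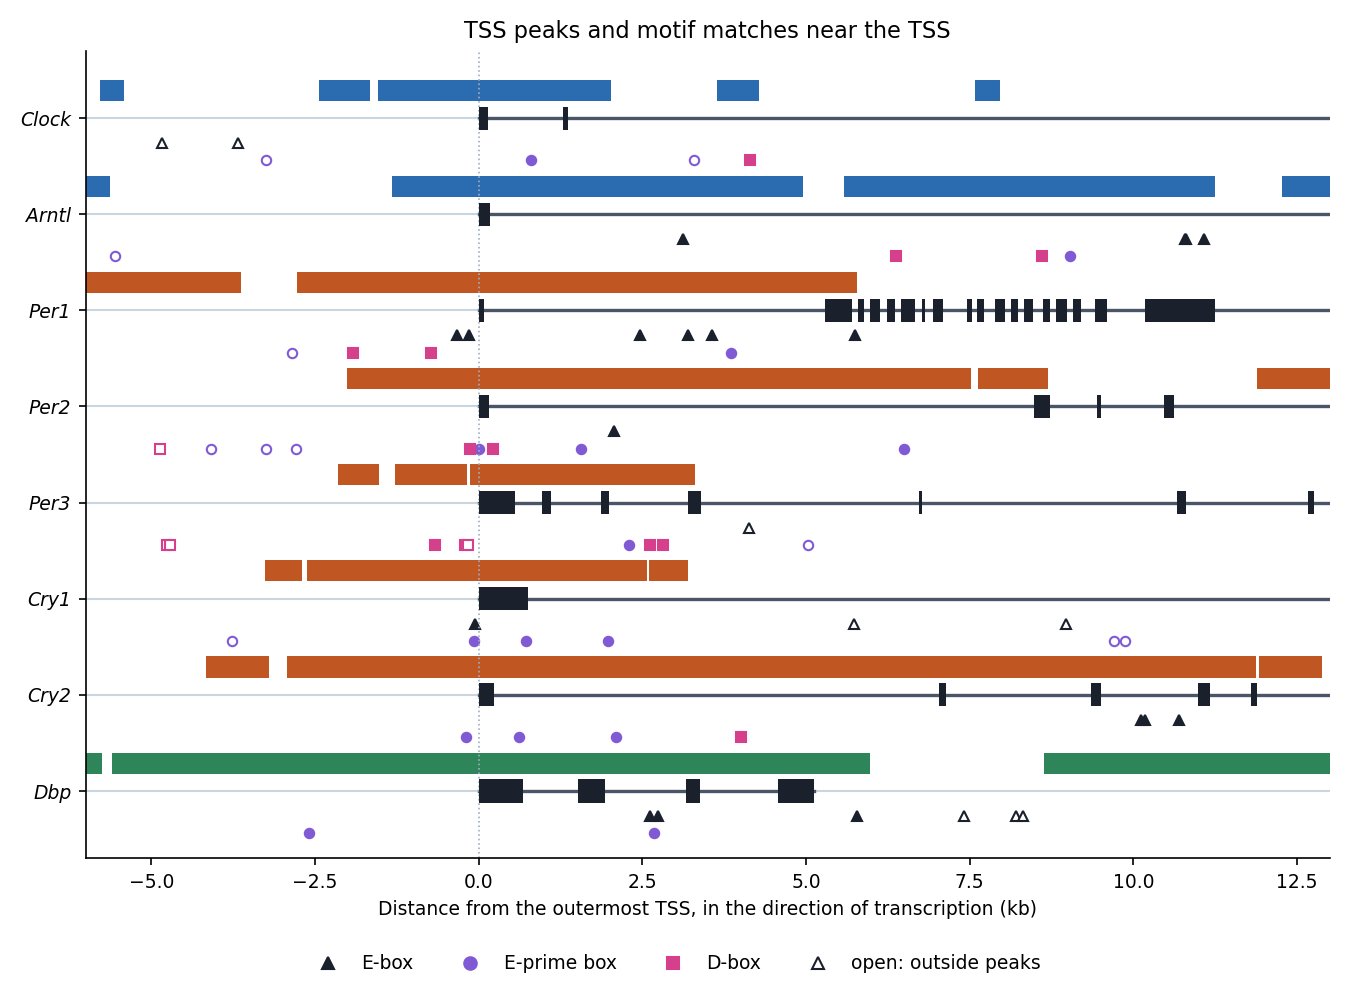
TSS peaks and neighbouring peaks (bars, blue for activators, orange for repressors, green for Dbp), exons (dark boxes) and motif matches (triangles E-boxes, circles E-prime boxes, squares D-boxes; filled under a peak, open outside) from 6 kb before to 13 kb after the outermost TSS, in kb. Per1 has 6 filled triangles under its TSS peak, and Clock and Per3 have none.

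E-prime boxes were counted in the same way. Of 77 in the windows, 31 lay under peaks (40.3%, Wilson 95% interval 30.02 to 51.4%), beside 29.7% of bases covered. The density was 0.190 per kb under peaks and 0.119 outside, and genome-wide it was 0.154 and 0.105 per kb, so E-prime boxes were denser under peaks across the genome as well. By role the count was 24 of 48 for the repressors and 4 of 26 for the activators, and their peaks cover 32.7% and 21.1% of bases. Per2 contributed 10, one of them 5 bp after its TSS, and Cry1 contributed 7. All 3 of Cry2 and all 3 of Dbp lay under peaks. Sites of one window share its peaks and are not independent, so the interval is narrower than the error of such a share.

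D-boxes, the sites of DBP and its relatives, lay under peaks in 14 of 40 cases (35.0%), beside 29.7% of bases covered. Genome-wide they numbered 0.0459 per kb under peaks and 0.0569 outside. Per3 had 4 of 8, and Per2 had one on either side of its TSS, at -125 and 222 bp. Dbp itself had none in its window. A CRE, the site of the signal-responsive factor CREB, lay in the TSS peak of Per1 at 1985 bp and of Cry2 at 8473 bp, and 3 of the 6 in all windows lay under peaks. Genome-wide the CRE was 2.06 times as dense under peaks as outside.

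Base composition differed between peaks and the rest of the windows. CpG was denser under peaks than outside in 8 of 8 windows, most of all in Clock, with 39.3 per kb under peaks and 8.06 outside, and least in Arntl, with 12.8 and 9.96. Genome-wide the values were 16.5 and 7.65 per kb. GC was higher under peaks in 6 of 8, not in Per1 or Per3. Genome-wide GC was also higher under peaks, at 46.6%, than outside, at 41.3%. Repeats were scarcer under peaks in 7 of 8, not in Per1, and no genome-wide repeat share was computed. The part of base composition in the positions of the peaks was not tested.

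The wider clock was compared through 23 further genes: paralogs of the activators, nuclear receptors, D-box factors, E-box repressors, kinases and ubiquitin ligases that act on PER and CRY, and outputs. All 23 had a promoter peak, against 67.8% of protein-coding genes, and 21 had the outermost TSS under a peak, against 56.8%. A promoter peak 5 kb or wider was listed for 9, against 16.5%. The median covered share of the 23 was 31.8% (0.602 to 75.5%). That of the 8 members was 36.9%, and that of all protein-coding genes was 9.85%. The highest were Bhlhe41, a repressor that binds E-boxes, at 75.5%, Nr1d1, the gene of REV-ERB alpha, at 55.2%, and Usp2, a ubiquitin protease under clock control, at 53.2%. The lowest were Rorb, a receptor of neural tissue, at 0.602%, Nampt, the rate-limiting enzyme of NAD+ salvage, at 5.15%, and Arntl2, the paralog of Arntl, at 5.97%. Npas2, which can stand in for Clock, had 34 peaks and 49.7%, against 5.91% for Clock. So in each activator pair 1 paralog was broadly covered and the other was not: Arntl at 34.8% and Arntl2 at 5.97%, and Npas2 and Clock. By class the median was 40.7% for 3 E-box repressors (38.4 to 75.5%) and 35.5% for 3 D-box factors (23.1 to 39.9%). It was 35.1% for 3 outputs (5.15 to 53.2%) and 27.8% for 2 activator paralogs (5.97 to 49.7%). It was 19.1% for 5 nuclear receptors (0.602 to 55.2%) and 16.2% for 7 kinases and ligases (7.32 to 41.6%). The ranges of the classes overlapped.

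**Figure D5:**
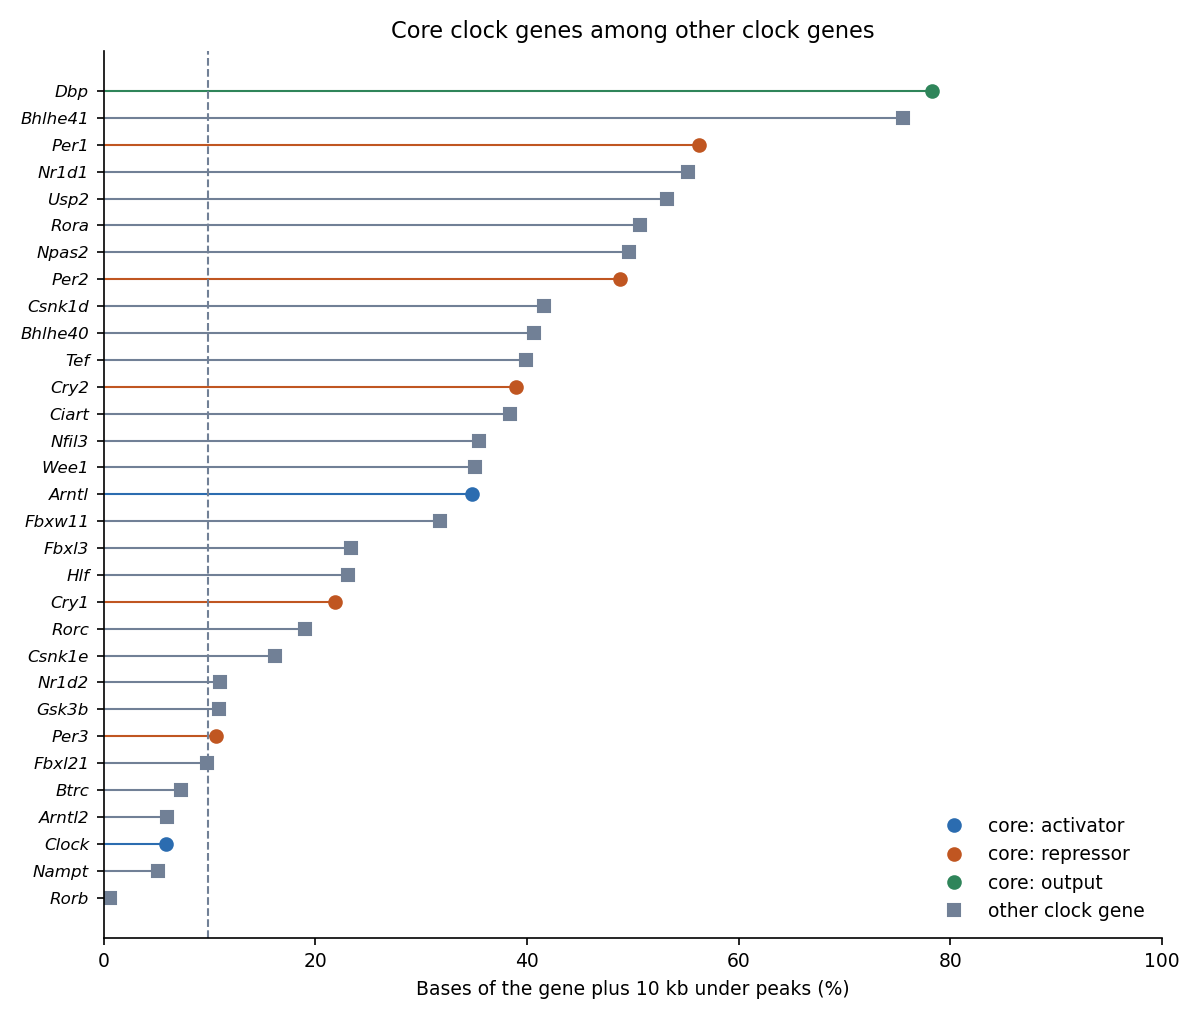
Share of bases of each gene plus 10 kb under peaks (%) for the 8 core clock genes (circles, coloured by role) and the 23 other clock genes (grey squares), in order; the dashed line is the median of all protein-coding genes, 9.85%. Dbp is highest and Rorb lowest, with the core genes spread from 5.91 to 78.3%.

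The labelled cell type was checked through marker genes. All 7 MuSC markers (Pax7, Myf5, Myod1, Cdh15, Calcr, Vcam1 and Itga7) had a promoter peak, against 67.8% of protein-coding genes, and 16.8 to 92.9% of their windows was covered. Of 9 markers of other cells of muscle, 5 had one (Cd68, Pecam1, Pdgfra, Acta1 and Myh4), and Ptprc, Cdh5, Ly6a and Rgs5 had none. Their windows were covered by 0 to 38.4%, which overlaps the MuSC markers: Cd68 at 38.4% and Pecam1 at 24.97% lay above Myod1 at 16.8%. The sort removed cells that carry the products of Ptprc, Pecam1 and Ly6a. Pecam1 nevertheless had 5 promoter peaks. The part of other cells in the peaks of the clock genes was not tested.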

How the data were processed

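Mouse MuSC H3K56ac ChIP-seq and input reads were trimmed by the authors with Trim Galore, aligned to mm10 with bowtie (reads with one alignment only), and deduplicated with Picard. Peaks were called with MACS2, cleared of blacklisted regions and merged with GenomicRanges. FastQC, SAMtools and deepTools stand in the submitters' processing notes. The deposited list holds positions only: its score is 0 in every row and it has 0 columns of values per library. Merging widens and fuses intervals, and dropping reads with several alignments lowers the chance of a peak in repeats.

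Here, positions were set against GENCODE vM21 and GRCm38 (the build of mm10; every chromosome's last peak ended inside it), with Python 3.11.15, numpy 2.4.6, pandas 2.3.3, scipy 1.17.1 and matplotlib 3.10.9. The outermost TSS is the 5′ end of the gene record. The counting functions were tested on simulated intervals. Named were all 8 members, other clock genes without a promoter peak and the 3 highest and 3 lowest by covered share. Coding genes starting in a member window at its peaks were also named. Npas2, Camta1, Sec1, Fam83e, Ilkap and Hes7 were named after their values were seen. Members and lists were chosen with earlier results of these data known. Alternatives were other flanks and promoters, joined or wider intervals, peaks clear of other genes, other averages, single genes left out, other length ranges and other motif sets; leaving out each activator was added after seeing the data.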

Additional observations from a re-analysis of the deposited data

How the results depend on the processing

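No paired analysis was possible because the peaks were deposited as 1 list without columns for libraries. The 74 peaks became 46 over gene bodies alone and 40 when intervals under 1 kb apart were joined. For gene bodies alone, flanks of 3 kb and flanks of 25 kb in turn, activators had 21.9, 22.3 and 19.6% of bases covered, repressors 29.6, 34.4 and 31.6%, Dbp 100, 80.7 and 56.6%, and the activator minus repressor difference was -7.74, -12.1 and -11.95 points. With joined intervals the shares were 22.97, 35.0 and 78.9% and the difference -12.03. With intervals of at least 500 bp, activators had 19.99% and the difference was -12.7. As means of the genes' own shares, activators had 20.4%, repressors 35.3%, and the difference was -14.9. Leaving out 1 repressor at a time gave repressor shares of 28.1 to 38.8%. Leaving out 1 member at a time, the difference ran from -26.8 without Arntl to 2.105 without Clock, where it reversed. Joining intervals raised the median promoter peak to 8517 bp (activators), 10693 bp (repressors) and 12991 bp (Dbp). The members' median percentile, 89.9, was 92.0 and 91.5 among windows within 20% and 50% of the same length. Counts of members and of other clock genes with a promoter peak were the same under every definition tried. The share of E-boxes under peaks was 31.0% without repeats and 35.3% with E-prime boxes added. Depth is unknown from the list, so no missing peak can be read as missing H3K56ac, and the genotype behind an interval cannot be told apart.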
